A study of Mus musculus with 8 samples.

Results

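TNFa was added to mouse dendritic cells that had first been exposed to VD3, and 4 of the 8 arrays of the series measure what the cytokine still changed in them: VDRmut VD3+TNFa and VDRwt VD3+TNFa, set against VDRmut VD3 and VDRwt VD3. The arrays were chosen by their titles, so there is 1 pair of arrays per genotype and 1 array per condition. VD3 is the hormone 1a,25-dihydroxyvitamin D3, and cells on day 7 of differentiation were exposed to it at 1e-06 M for 30 min. TNFa then followed at 50 ng/ml, and the cells were taken after 4 h. VDRmut mice carry a vitamin D receptor that lacks its DNA-binding domain, in every cell of the animal, and VDRwt mice are their controls. All cells were grown from the bone marrow of male mice 9 weeks of age, expanded in a cytokine mixture that also held dexamethasone, and differentiated with GM-CSF. The remaining arrays, TNFa alone and untreated cells of both genotypes, are used here as the response without VD3. How many mice or cultures lie behind an array is not given in the labels.

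TNFa is a cytokine of infection and inflammation. Through its receptor it activates the IkB kinases, IkB proteins are degraded, and NF-kB dimers enter the nucleus and switch on chemokines, cytokines, survival genes and their own inhibitors. In dendritic cells the same signal drives maturation, in which antigen uptake falls and costimulatory proteins, cytoskeletal proteins and a new chemokine pattern appear. The vitamin D receptor is a nuclear receptor that binds DNA together with the retinoid X receptor, and the hormone is known for holding dendritic cells in an immature, tolerance-promoting state.

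Each value is a MAS5 signal, a linear brightness for a set of probes, with a detection call of Present, Marginal or Absent. Changes are differences of log2 signals, VD3+TNFa minus VD3 unless stated. Between 46.45% and 51.54% of the 22690 probe sets were Present on an array, and 12832 probe sets, which name 7578 genes, were tested. The arrays were not alike in quality measures. The 5' to 3' ratio of the beta-actin control was 0.449 (VDRmut) and 0.781 (VDRwt) on the VD3+TNFa arrays, against 0.86 (VDRmut) and 0.889 (VDRwt) on the VD3 arrays. Its 3' signal was 4385.4 (VDRmut) and 8540.9 (VDRwt) on the VD3+TNFa arrays, against 13864.3 (VDRmut) and 16419.8 (VDRwt) on the VD3 arrays. The 3' signal of the 18S control was 227.3 (VDRmut) and 1121.3 (VDRwt) on the VD3+TNFa arrays, against 99.3 (VDRmut) and 183.9 (VDRwt) on the VD3 arrays. On the arrays without VD3 this signal was 7128.9 (VDRmut) and 8510.7 (VDRwt) with TNFa, against 62.8 (VDRmut) and 50.5 (VDRwt) in untreated cells. Every response without VD3 and every difference from it rests on these arrays. The part of the 18S signal in them was not tested. In VDRwt the VD3+TNFa array was also scanned on another day and run with another fluidics protocol than the VD3 array. Treatment thus cannot be told apart from scan day and protocol in that pair. The VDRwt TNFa and untreated arrays were likewise scanned on different days, so TNFa and scan day cannot be told apart there. For the VDRmut arrays those records are empty. A term for scan day, used below as an alternative, counts the VDRmut arrays with scan day 1. In VDRwt that term coincides with TNFa, so it cannot tell scan day from TNFa. The median gene changed by -0.13 in the VDRmut pair and -0.02 in the VDRwt pair, and by 0.00 and 0.02 after quantile normalization.

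After VD3, TNFa raised 42 genes, among them chemokines, interleukin-1 alpha, regulators of cell death and sterol enzymes, and lowered 12. Of 12832 probe sets 103 passed at an adjusted p of 0.05 (0.803%), 82 higher and 21 lower. Counted by gene, on the brightest probe set, 42 of 7578 rose (0.554%) and 12 fell (0.158%). At an unadjusted p under 0.05 there were 2859 probe sets. All 103 called probe sets moved in 1 direction in both pairs, as did 68.6% of all probe sets. For all 42 genes that rose, both VD3+TNFa signals lay above both VD3 signals, an order that 24.4% of all genes showed. For all 12 that fell, both lay below, as for 32.7% of all genes. The call uses these same signals and favours genes with 1 direction and no overlap. These counts therefore describe the calls and are no separate support for them. The 2 genotypes stand in for replicates in this fit, so a gene whose response differs between them is unlikely to be called. The calls depend on each of the 4 arrays with VD3: leaving out 1 of them gave between 0 and 6 called probe sets in place of 103, and a signal floor of 50 or a term for scan day gave 1.

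**Figure D1:**
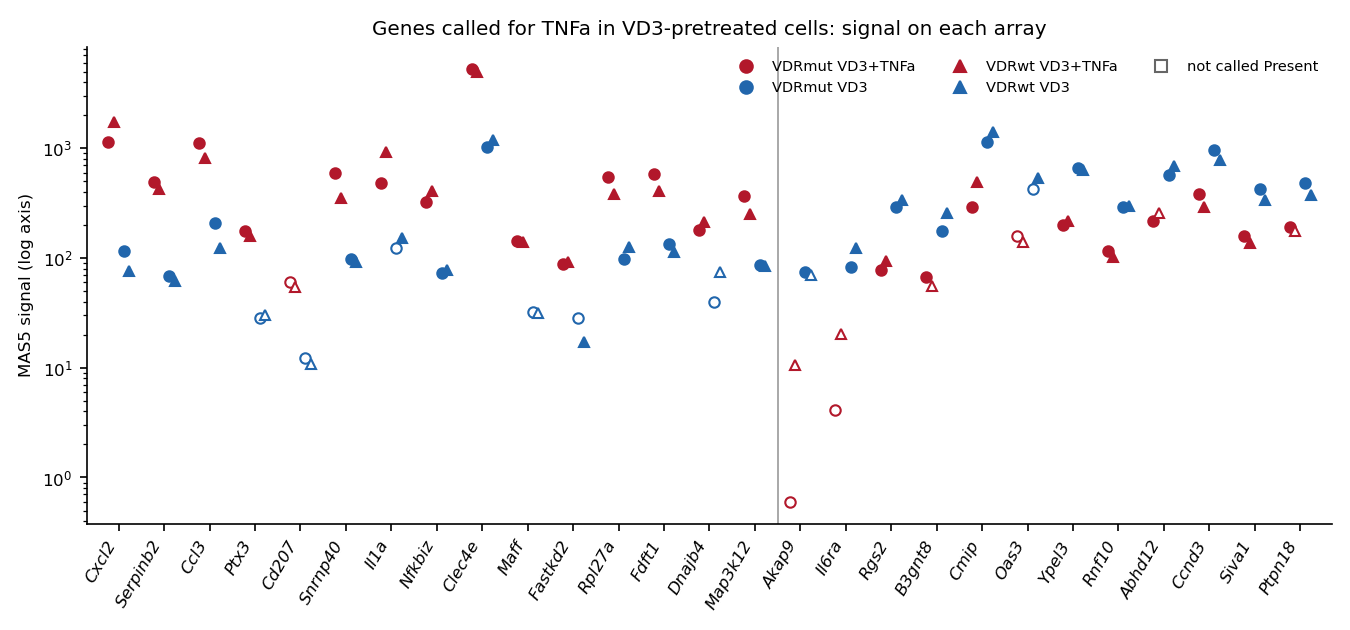
MAS5 signal on a log axis (y) of the 15 genes with the largest called rise and the 12 called genes that fell (x). Red stands for VD3+TNFa and blue for VD3, circles for VDRmut and triangles for VDRwt, and open symbols for signals not called Present. Cxcl2, at 1143.8 and 1733.5 with VD3+TNFa, has the widest gap among the genes that rose, and Cd207 is open on all 4 arrays.

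Counted by size, 291 genes were at least 2-fold higher and Present in VDRmut (3.84% of 7578) and 319 in VDRwt (4.21%), and 121 were so in both (1.60%). At least 2-fold lower were 522 genes in VDRmut (6.89%) and 363 in VDRwt (4.79%), with 97 in both (1.28%). Across the probe sets the changes of the VDRmut and the VDRwt pair correlated with a Pearson r of 0.429, and their SDs were 0.8 and 0.67. Probe sets are not independent replicates.

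**Figure D2:**
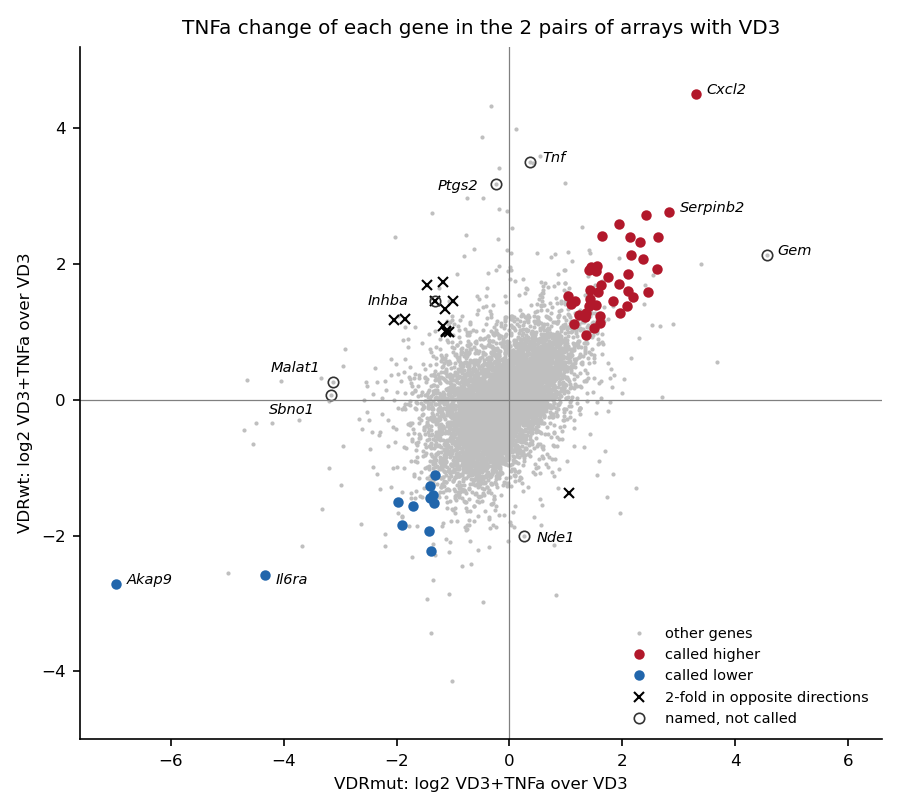
Log2 change, VD3+TNFa over VD3, of 7578 genes in the VDRmut pair (x) and the VDRwt pair (y). Red points are the 42 genes called higher, blue the 12 called lower and crosses the 12 genes that moved at least 2-fold in opposite directions. On the brightest probe set, which is plotted, Tnf and Ptgs2 lie high in the VDRwt pair and near 0 in the VDRmut pair, and Malat1 and Sbno1 low in the VDRmut pair and near 0 in the VDRwt pair. Other probe sets of Ptgs2 and Sbno1 had like changes in both pairs.

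The chemokines Cxcl2 and Ccl3, which attract neutrophils and monocytes, rose. Cxcl2, a ligand of the neutrophil receptor CXCR2, had signals of 1143.8 (VDRmut) and 1733.5 (VDRwt) in VD3+TNFa cells, against 115.6 (VDRmut) and 75.9 (VDRwt) in VD3 cells. Both treated arrays lay far above both others, a 15-fold rise (log2 3.91 ± 0.34 SE, adjusted p = 0.00462). Ccl3, the macrophage inflammatory protein 1 alpha, read 1109.3 (VDRmut) and 816.1 (VDRwt) in VD3+TNFa cells, against 206.5 (VDRmut) and 123.5 (VDRwt) in VD3 cells. It rose 5.96-fold (2.57 ± 0.21, adjusted p = 0.00446). Of the 16 chemokines tested these were the only calls, beside 0.554% of all genes called higher. The list's median change was 0.01, beside -0.09 over all genes. Cxcl10, a ligand of CXCR3 on T cells, was Present at 238.4 (VDRmut) and 192.9 (VDRwt) in VD3+TNFa cells and Absent at 71.7 (VDRmut) and 55.4 (VDRwt) in VD3 cells, at least 3.4-fold, with an adjusted p of 0.08. Ccl5 had lower signals, with 2298.4 (VDRmut) and 2776.1 (VDRwt) in VD3+TNFa cells against 5409.3 (VDRmut) and 5256.1 (VDRwt) in VD3 cells (-1.08 ± 0.22, adjusted p = 0.0578).

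The other chemokines changed less. Ccl22 and Ccl17, which attract T cells through CCR4, had log2 changes of 0.35 ± 0.27 and -0.29 ± 0.23. Ccl6 (-0.66 ± 0.25) and Ccl9 (-0.24 ± 0.22), abundant myeloid chemokines, had signals between 6575.8 and 13858.7 on the 4 arrays. Cxcl16, Ccl2, Ccl4, Ccl8, Cx3cl1, Pf4 and Cxcl12 lay between -0.54 (Ccl8) and 0.48 (Cxcl12). Cxcl1, which shares its receptor with Cxcl2, was Absent on all 4 arrays, at 19.9 (VDRmut) and 20.9 (VDRwt) in VD3+TNFa cells and 20.8 (VDRmut) and 16.8 (VDRwt) in VD3 cells. Without VD3 the Cxcl1 signal was 192.4 (VDRmut) and 407.6 (VDRwt) in TNFa cells, both Present, against Absent values of 2.7 (VDRmut) and 3.9 (VDRwt) in untreated cells. For Cxcl1 the test of the difference between the responses with and without VD3 passed (adjusted p = 0.00759), and no size is given because 6 of the 8 signals were Absent. For Cxcl2 the same difference was 1.42 (adjusted p = 0.152).

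Among cytokines, Il1a and Ptx3 rose. Il1a read 477.3 (VDRmut) and 915.3 (VDRwt) in VD3+TNFa cells, against 123.6 (VDRmut, Absent) and 152.1 (VDRwt) in VD3 cells, a 4.82-fold rise (2.27 ± 0.32, adjusted p = 0.0352). Il1b had 3674.3 (VDRmut) and 4315.5 (VDRwt) in VD3+TNFa cells against 696.4 (VDRmut) and 1333 (VDRwt) in VD3 cells, and its 4.13-fold difference missed the threshold (2.05 ± 0.40, adjusted p = 0.0567). Ptx3, a long pentraxin that binds microbes, was Present at 177 (VDRmut) and 159.3 (VDRwt) in VD3+TNFa cells and Absent at 28.6 (VDRmut) and 30.3 (VDRwt) in VD3 cells. It rose at least 5.7-fold (adjusted p = 0.0494). These were 2 calls among 21 cytokines and secreted mediators tested, whose median change was 0.14 in the VDRmut pair and 0.70 in the VDRwt pair. Over all genes 0.554% were called higher, and the medians were -0.13 and -0.02. Il6 was 59 (VDRmut) and 130.4 (VDRwt) in VD3+TNFa cells, against 35.6 (VDRmut, Absent) and 30.3 (VDRwt) in VD3 cells (1.42 ± 0.50, adjusted p = 0.148). Il12b, the p40 chain of interleukin-12, had signals of 119.4 (VDRmut) and 134.2 (VDRwt) in VD3+TNFa cells against 84.1 (VDRmut) and 79.1 (VDRwt) in VD3 cells (0.63 ± 0.25, adjusted p = 0.178).

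Promoter windows of 4 called genes are shown because they hold the letters searched for: the kappa B consensus bound by NF-kB in Cxcl2 and Ptx3, the AP-1 motif TGANTCA in Serpinb2, and TCACNCCAC, a sterol regulatory element, in Hmgcs1. Windows are RefSeq sequences of GRCm38.p6 from 250 bases before to 50 bases after the transcript start, 5' to 3' on the gene's strand, with matches on either strand in capitals. Positions count the first transcribed base as 1 and have no 0. Cxcl2 (chr5:90903649-90903948, + strand) holds overlapping matches on both strands from -97 to -87, Ptx3 (chr3:66219637-66219936, + strand) from -1 to 10, Serpinb2 (chr1:107511173-107511472, + strand) a match from -94 to -88, and Hmgcs1 (chr13:119690101-119690400, + strand) from -137 to -129.
Cxcl2: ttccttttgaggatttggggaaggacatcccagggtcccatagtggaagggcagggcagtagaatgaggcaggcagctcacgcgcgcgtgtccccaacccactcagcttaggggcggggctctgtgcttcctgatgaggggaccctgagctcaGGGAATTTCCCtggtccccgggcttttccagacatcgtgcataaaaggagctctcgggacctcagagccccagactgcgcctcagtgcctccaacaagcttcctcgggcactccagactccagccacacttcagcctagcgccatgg
Ptx3: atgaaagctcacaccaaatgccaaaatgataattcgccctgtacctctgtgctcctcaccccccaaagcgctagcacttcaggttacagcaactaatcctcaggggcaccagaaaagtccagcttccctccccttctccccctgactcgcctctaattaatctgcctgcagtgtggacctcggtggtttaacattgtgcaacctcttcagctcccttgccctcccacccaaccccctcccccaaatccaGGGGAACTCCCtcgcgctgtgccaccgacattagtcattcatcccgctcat
Serpinb2: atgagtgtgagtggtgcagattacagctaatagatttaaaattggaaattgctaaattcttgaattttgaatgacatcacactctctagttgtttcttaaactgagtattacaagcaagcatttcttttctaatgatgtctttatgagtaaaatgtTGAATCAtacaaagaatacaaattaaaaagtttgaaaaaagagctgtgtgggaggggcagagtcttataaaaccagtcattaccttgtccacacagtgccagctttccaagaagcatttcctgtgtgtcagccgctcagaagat
Hmgcs1: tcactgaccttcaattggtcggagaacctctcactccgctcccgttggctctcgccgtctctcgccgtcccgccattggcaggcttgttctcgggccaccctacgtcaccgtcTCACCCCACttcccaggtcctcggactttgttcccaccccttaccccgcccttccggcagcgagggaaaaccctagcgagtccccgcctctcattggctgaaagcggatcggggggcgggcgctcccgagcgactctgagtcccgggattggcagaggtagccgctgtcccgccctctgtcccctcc
A window was matched for 35 of the 42 genes that rose. The kappa B consensus was in the windows of 3 of them (Cxcl2, Ptx3 and Maff), 8.57%, beside 6.4% of the 6219 tested genes with a window and 4.51% of all 32851 windows. TGANTCA was in 3 (Serpinb2, Il1a and Cd207), 8.57%, beside 6.91% and 7.81%, and TCACNCCAC in 1, Hmgcs1, 2.86%, beside 1.42% and 1.24%. These shares rest on 1 to 3 genes and lie near those of the tested genes, which are also counted by gene. The share of all windows counts each window by itself, so it is not a like measure. A match describes letters and not binding.

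Among genes of the NF-kB system, Nfkbiz, an inducible nuclear IkB protein, was the only call among the 13 subunits, kinases and inhibitors tested. It read 320.4 (VDRmut) and 408.1 (VDRwt) in VD3+TNFa cells, against 73.3 (VDRmut) and 77 (VDRwt) in VD3 cells, a 4.81-fold rise (2.27 ± 0.24, adjusted p = 0.0133). The feedback inhibitors Nfkbie (0.90 ± 0.28, adjusted p = 0.113) and Tnfaip3 (0.90 ± 0.25, adjusted p = 0.0989) were each higher in both pairs without passing. Tnfaip3, the deubiquitinase A20, had 301.6 (VDRmut) and 326.9 (VDRwt) in VD3+TNFa cells against 167.3 (VDRmut) and 169.7 (VDRwt) in VD3 cells. Nfkbia, the classical IkB alpha, had 6745.4 (VDRmut) and 6090.6 (VDRwt) in VD3+TNFa cells against 4764.7 (VDRmut) and 6123.1 (VDRwt) in VD3 cells, a log2 change of 0.5 in VDRmut and -0.01 in VDRwt. The dimmer Nfkbia probe sets gave 0.29, 0.52 and 0.71, each higher in both pairs, and did not pass. The DNA-binding subunits Rela (-0.19), Relb (0.07), Rel (0.30) and Nfkb2 (-0.23) and the coactivator Bcl3 (-0.67) did not pass. Ikbkb (0.20), Ikbkg (-0.07), Tnip1 (0.33) and Nfkbib (0.14, Absent on all 4 arrays) did not pass either. The list's median was 0.33 in the VDRmut pair and 0.07 in the VDRwt pair with VD3, and 1.18 in the fit without VD3, where 7 of the 13 rose. Over all genes these medians were -0.13, -0.02 and 0.0, and 11.1% of all probe sets passed without VD3. For 0 of the 13 did the difference between those responses pass (limma, with 227 of 12832 probe sets or 1.77% passing).

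Of 19 TNF receptors and adaptors 0 passed, beside 0.554% and 0.158% of all genes higher and lower. The costimulatory receptor Cd40 had 339.1 (VDRmut) and 201.9 (VDRwt), both Present, in VD3+TNFa cells, against Absent values of 134.3 (VDRmut) and 69.2 (VDRwt) in VD3 cells, at least 2.71-fold with an adjusted p of 0.0953. A second, dimmer Cd40 probe set passed (log2 1.98, adjusted p = 0.0494). Tnfaip2, a TNF-inducible cytoplasmic protein, had 4145.8 (VDRmut) and 2634 (VDRwt) in VD3+TNFa cells against 1513.1 (VDRmut) and 1570.8 (VDRwt) in VD3 cells (1.10 ± 0.23, adjusted p = 0.0599). A dimmer Tnfaip2 probe set gave 0.30 (adjusted p = 0.576), with 0.68 in VDRmut and -0.08 in VDRwt. Map3k14, the kinase NIK of the alternative NF-kB pathway, had 161.9 (VDRmut) and 146.8 (VDRwt) in VD3+TNFa cells against 418.7 (VDRmut) and 337.1 (VDRwt) in VD3 cells (-1.29 ± 0.36, adjusted p = 0.0961).

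Of 20 regulators of cell death tested, 3 rose, beside 0.554% of all genes. The median was 0.37 in the VDRmut pair and 0.42 in the VDRwt pair, beside -0.13 and -0.02 over all genes. Birc3, the inhibitor of apoptosis cIAP2, had 1392.3 (VDRmut) and 1631.7 (VDRwt) in VD3+TNFa cells, against 681 (VDRmut) and 562.2 (VDRwt) in VD3 cells, 2.44-fold higher (1.28 ± 0.23, adjusted p = 0.0494). Cflar, which blocks caspase-8, had 633.3 (VDRmut) and 675.9 (VDRwt) in VD3+TNFa cells and 209.1 (VDRmut) and 285.9 (VDRwt) in VD3 cells, 2.68-fold higher (adjusted p = 0.0412). Its other 3 probe sets disagreed, at -0.75, -0.67 and 1.59. Pmaip1, the pro-death BH3 protein Noxa, had 374.7 (VDRmut) and 472.6 (VDRwt) in VD3+TNFa cells and 139.7 (VDRmut) and 168.1 (VDRwt) in VD3 cells, 2.75-fold higher (adjusted p = 0.0405). The death receptor Fas was higher in both pairs, by 2.66 in VDRmut and 1.09 in VDRwt, without passing (adjusted p = 0.0756).

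Maturation genes responded in part. Of 34 tested, 2 rose with VD3, Fscn1 and Birc3, beside 0.554% of all genes. In both pairs 22 were higher, beside 30.3% of all genes, with a median of 0.42 in VDRmut and 0.51 in VDRwt. Fscn1, the actin-bundling protein of dendrites, had 6426 (VDRmut) and 4025.7 (VDRwt) in VD3+TNFa cells, against 2407.6 (VDRmut) and 1540.6 (VDRwt) in VD3 cells (1.4 ± 0.24, adjusted p = 0.0494). The 3 dimmer Fscn1 probe sets gave -0.24 to -0.41. Without VD3, where 1418 probe sets passed (11.1%), 24 of the 34 rose and 2 fell, with a median of 1.77, and both genes called with VD3 were among the 24. The test of the difference passed for 3 of the 34, Ccr7 (-2.53), Gadd45b (-1.95) and Net1 (-3.42), all smaller with VD3. Cd86, a ligand of CD28, had 718.3 (VDRmut) and 508.5 (VDRwt) in VD3+TNFa cells against 335.6 (VDRmut) and 255.6 (VDRwt) in VD3 cells (1.05 ± 0.37, adjusted p = 0.151). Gem, a small GTPase, had 73 (VDRmut) and 91.8 (VDRwt) in VD3+TNFa cells and Absent values of 3.1 (VDRmut) and 21 (VDRwt) in VD3 cells, at least 6.16-fold with an adjusted p of 0.113.

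A lectin, a serpin and a signalling inhibitor rose as well. Clec4e, the C-type lectin Mincle, had 5310.9 (VDRmut) and 4995.2 (VDRwt) in VD3+TNFa cells, against 1025.8 (VDRmut) and 1186.7 (VDRwt) in VD3 cells, 4.67-fold higher (2.22 ± 0.25, adjusted p = 0.0175), and its other probe set passed too. Serpinb2, an inhibitor of plasminogen activators, had 490.1 (VDRmut) and 425.9 (VDRwt) in VD3+TNFa cells and 68.7 (VDRmut) and 62.2 (VDRwt) in VD3 cells, 6.99-fold higher (2.81 ± 0.27, adjusted p = 0.00699). Socs3, an inhibitor of JAK-STAT signalling, had 1904.8 (VDRmut) and 2014.3 (VDRwt) in VD3+TNFa cells and 497.5 (VDRmut) and 615.2 (VDRwt) in VD3 cells, 3.54-fold higher (1.82 ± 0.33, adjusted p = 0.0494). In each of these both VD3+TNFa signals lay above both VD3 signals, as for all 42 genes that rose and 24.4% of all genes. The other Socs3 probe sets gave 0.23 (adjusted p = 0.69) and 1.41 (adjusted p = 0.0752). Socs3 was the only call among 21 JAK-STAT genes, whose median was -0.19.

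Maff, a small Maf transcription factor, was Present at 143.1 (VDRmut) and 139.3 (VDRwt) in VD3+TNFa cells and Absent at 32 (VDRmut) and 31.8 (VDRwt) in VD3 cells, at least 4.43-fold higher (adjusted p = 0.0405). It was the only call among 38 immediate early and feedback genes. Dnajb4, a heat shock cochaperone, was the only call among 26 chaperones, at 180.9 (VDRmut) and 213.9 (VDRwt) in VD3+TNFa cells against 39.6 (VDRmut, Absent) and 74.5 (VDRwt, Marginal) in VD3 cells. Of the 26 chaperones 19 were higher in both pairs and 4 lower in both, with a median of 0.37. Of all 7578 genes 30.3% were higher in both pairs and 39.9% lower in both. Of 35 pattern recognition and uptake receptors the calls were Clec4e and Cd207, beside 0.554% of all genes called higher. Cd207 was Absent on all 4 arrays, at 60.4 (VDRmut) and 54.3 (VDRwt) in VD3+TNFa cells and 12.2 (VDRmut) and 10.8 (VDRwt) in VD3 cells, so its call lies at background. Tlr2 (1.24 ± 0.32, adjusted p = 0.0832), Tlr1 (1.37 ± 0.48, adjusted p = 0.147) and Cd14 (1.11 ± 0.33, adjusted p = 0.107) were higher in both pairs and did not pass.

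Of the highest called genes on no list, Snrnp40, of the U5 splicing particle, had 600.5 (VDRmut) and 348.6 (VDRwt) in VD3+TNFa cells, against 97.9 (VDRmut) and 91.7 (VDRwt) in VD3 cells (2.27 ± 0.39, adjusted p = 0.0494). The ribosomal protein gene Rpl27a had 543.9 (VDRmut) and 379.7 (VDRwt) in VD3+TNFa cells, against 98.9 (VDRmut) and 126.8 (VDRwt) in VD3 cells (2.02 ± 0.30, adjusted p = 0.0352). Fastkd2, of mitochondrial RNA processing, was called at 2.03 and the kinase Map3k12 at 1.85. Another probe set gave 0.15 for Snrnp40 and -0.31 for Map3k12, and the others of Fastkd2 gave -0.08 and 2.15, none of which passed.

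In all, 25 of the genes that rose were on no list, and they include a regulator of sterols and several of RNA and protein handling. Ch25h, which makes 25-hydroxycholesterol, had 729.3 (VDRmut) and 621.9 (VDRwt) in VD3+TNFa cells, against 216.9 (VDRmut) and 177 (VDRwt) in VD3 cells, 3.44-fold higher (1.78 ± 0.26, adjusted p = 0.0352). The splicing factor Srsf1 (2.36-fold), the histidyl-tRNA synthetase Hars (2.88-fold) and the translation factor Denr (2.18-fold) rose. So did the oligosaccharyltransferase subunit Stt3a (2.43-fold), the amino sugar enzyme Uap1 (3.32-fold), the GPI anchor enzyme Piga (3.37-fold), the small GTPase Rhoq (3.14-fold) and the phosphatase subunit Ppp1cb (2.97-fold). Their adjusted p-values were 0.0281 to 0.0494. Other probe sets of several of these did not pass: 0.23 for Piga (adjusted p = 0.715), 0.26 for Hars (adjusted p = 0.588), 0.19 to 1.04 for Srsf1, 0.58 to 1.14 for Ppp1cb, 0.69 and 1.88 for Stt3a and 1.37 for Denr. Of the other Uap1 probe sets 1 passed (1.85, adjusted p = 0.0494) and those that did not gave 0.02 and 1.55. Of the 54 called genes 29 had several probe sets, and for 7 of these another one had the opposite fitted sign. Lasp1, an actin-binding protein called at 1.47, had 9 probe sets with changes of -1.85 to 1.47.

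Fewer genes fell. Il6ra, the interleukin-6 receptor, was Absent at 4.1 (VDRmut) and 20.5 (VDRwt) in VD3+TNFa cells and Present at 82.3 (VDRmut) and 123 (VDRwt) in VD3 cells, at least 9.15-fold lower (adjusted p = 0.0494). Rgs2, which shortens G protein signals, had 77.8 (VDRmut) and 94.1 (VDRwt) in VD3+TNFa cells, against 289.5 (VDRmut) and 336.7 (VDRwt) in VD3 cells, 3.65-fold lower (-1.87 ± 0.24, adjusted p = 0.0277). Ccnd3, a cyclin that drives entry into S phase, had 380.9 (VDRmut) and 294.4 (VDRwt) in VD3+TNFa cells and 970.5 (VDRmut) and 782.1 (VDRwt) in VD3 cells, 2.60-fold lower (-1.38 ± 0.22, adjusted p = 0.0435). Cmip (-1.74 ± 0.24, adjusted p = 0.0352) fell on both of its probe sets. B3gnt8 (-1.81), the zinc-binding protein Ypel3 (-1.64), Rnf10 (-1.43), Abhd12 (-1.43), Siva1 (-1.34) and the phosphatase Ptpn18 (-1.21) also fell. Dimmer probe sets of Rgs2 (-0.98), Abhd12 (-1.04) and Siva1 (-0.75 and -0.26) did not pass. Akap9 was Absent at 0.6 (VDRmut) and 10.6 (VDRwt) in VD3+TNFa cells, against 75.3 (VDRmut, Present) and 69.6 (VDRwt, Absent) in VD3 cells. Oas3, an antiviral oligoadenylate synthetase, had Absent signals of 159.3 (VDRmut) and 141.1 (VDRwt) in VD3+TNFa cells, against 428.2 (VDRmut, Absent) and 540 (VDRwt, Present) in VD3 cells.

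These falls were single members of their lists. Il6ra was the only call among 34 cytokine and chemokine receptors (median -0.25), Rgs2 among 21 G protein regulators and receptors (0.16), Ccnd3 among 32 cell cycle genes (-0.22) and Oas3 among 30 interferon response genes (-0.17). Il21r (-1.10 ± 0.27, adjusted p = 0.0765) and the lipid carrier Apoe (-1.24 ± 0.26, adjusted p = 0.0613) were lower in both pairs and did not pass. For both, TNFa raised the signal without VD3, and the differences passed: -2.48 for Il21r (adjusted p = 0.0234) and -3.19 for Apoe (adjusted p = 0.00759). Apoe had 325.6 (VDRmut) and 383.3 (VDRwt) in VD3+TNFa cells and 828.6 (VDRmut) and 834.7 (VDRwt) in VD3 cells. Without VD3 it had 2745.3 (VDRmut) and 1646.4 (VDRwt) in TNFa cells and 632.5 (VDRmut) and 474.3 (VDRwt) in untreated cells.

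For 5 of 21 sterol synthesis genes the response to TNFa with VD3 differed from that without VD3 by the test of the difference, beside 1.76% of all 7578 genes and 1.77% of all probe sets. Cells make cholesterol from acetyl-CoA through mevalonate, farnesyl and squalene intermediates, and the enzymes are switched on together by the factor SREBP-2. With VD3, 2 of 21 genes rose, beside 0.554% of all genes. Hmgcs1, which makes HMG-CoA, had 1543.1 (VDRmut) and 1065.8 (VDRwt) in VD3+TNFa cells, against 606.2 (VDRmut) and 548.3 (VDRwt) in VD3 cells, 2.22-fold higher (1.15 ± 0.21, adjusted p = 0.0494). Fdft1, squalene synthase, had 578.8 (VDRmut) and 406.4 (VDRwt) in VD3+TNFa cells, against 134.9 (VDRmut) and 112.4 (VDRwt) in VD3 cells, 3.94-fold higher (1.98 ± 0.33, adjusted p = 0.0494). Its dimmer probe set gave 0.49 and did not pass. Msmo1, a sterol demethylase, had 1045.2 (VDRmut) and 614.1 (VDRwt) in VD3+TNFa cells and 355.9 (VDRmut) and 309.8 (VDRwt) in VD3 cells, and missed narrowly (1.27 ± 0.24, adjusted p = 0.0509).

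The median change was 0.22 with VD3 and -0.78 without VD3, where 8 of the 21 fell and 1 rose. Over all genes the medians were -0.09 and 0.0, and 11.1% of all probe sets passed without VD3. The 5 with a difference that passed were Msmo1 (2.88, adjusted p = 0.00759), Fdft1 (2.76, adjusted p = 0.0284), squalene epoxidase Sqle (2.32, adjusted p = 0.0269), Fdps (2.12, adjusted p = 0.0331) and Hmgcs1 (2.06, adjusted p = 0.0203). Sqle had 770.8 (VDRmut) and 639.1 (VDRwt) in VD3+TNFa cells against 520.9 (VDRmut) and 455.6 (VDRwt) in VD3 cells. Without VD3 it had 151.6 (VDRmut) and 167.8 (VDRwt) in TNFa cells against 750.3 (VDRmut) and 406 (VDRwt) in untreated cells. The remaining enzymes Cyp51 (1.08), Idi1 (0.75), Hsd17b7 (0.71), Sc5d (0.64), Lss (0.35), Nsdhl (0.32), Ebp (0.22), Mvd (-0.24), Tm7sf2 (-0.24), Pmvk (-0.29), Ggps1 (-0.31) and Dhcr7 (-0.87) did not pass with VD3 on their brightest probe sets. A dimmer Idi1 probe set did, at 1.68 (adjusted p = 0.0494). The other 3 Hmgcs1 probe sets gave 0.84 to 1.22 and did not pass. Nor did Fdps (0.05), the regulators Srebf2 (-0.58), Srebf1 (-0.87) and Insig2 (0.00) or the transporter Stard4 (-1.22). Stard4 changed by -2.16 in VDRmut and -0.29 in VDRwt. Dimmer probe sets gave -1.56 for Srebf2, 1.03 and 0.20 for Insig2 and -0.02 for Stard4, and did not pass either. The TNFa-alone arrays, on which the 8 falls rest, are those of high 18S 3' signal, 7128.9 (VDRmut) and 8510.7 (VDRwt), and the part of that signal in the difference was not tested.

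**Figure D3:**
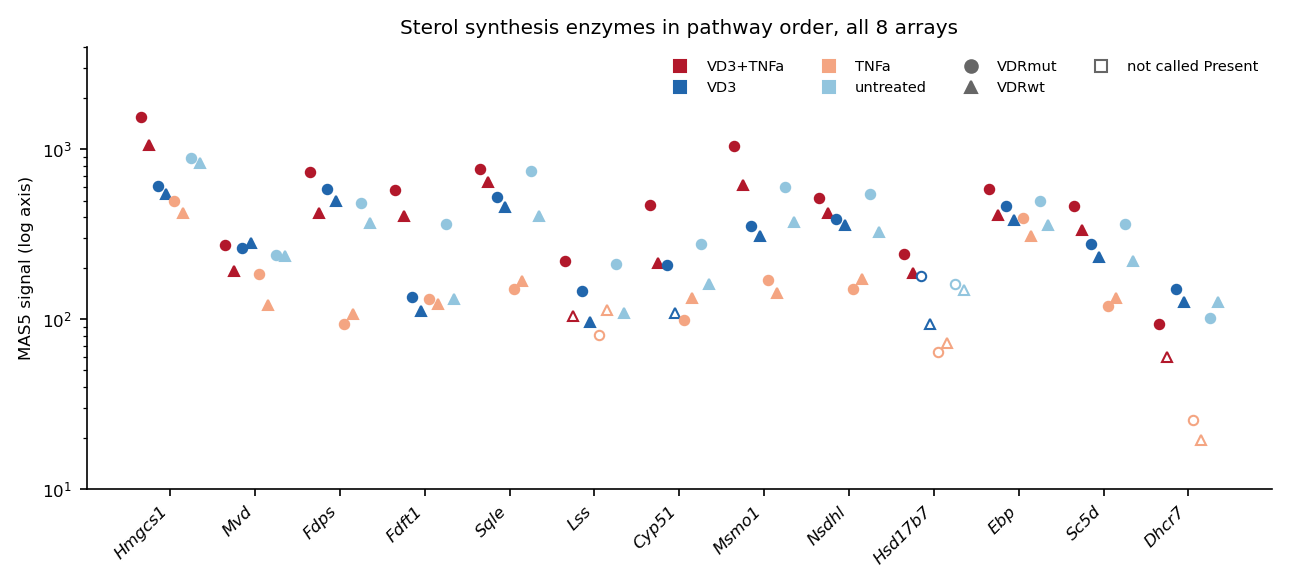
MAS5 signal on a log axis (y) of 13 sterol synthesis enzymes in pathway order (x) on all 8 arrays. Colours stand for VD3+TNFa, VD3, TNFa and untreated cells, circles for VDRmut, triangles for VDRwt and open symbols for signals not called Present. For Fdps, Sqle, Msmo1 and Nsdhl the TNFa points lie below all others, while the VD3+TNFa points of Hmgcs1, Fdft1 and Msmo1 lie above the VD3 points.

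Of 25 glycolysis and hypoxia genes tested, 0 passed with VD3 (limma) and their median change was 0.21. Without VD3 11 of them fell, 1 rose and the median was -1.16. The difference was positive and passed for 5, which include the prolyl hydroxylase Egln3 (4.11), Pdk1 (2.90) and Tpi1 (1.90), and negative for Pfkfb3 (-2.72). Of all genes 1.76% had a difference that passed in either direction. The dimmer Egln3 probe set gave a difference of 3.35 (adjusted p = 0.0954). A dimmer Pdk1 probe set changed by -0.03 with VD3, against 1.07 on the brightest one. The glucose transporter Slc2a1 had 2571.4 (VDRmut) and 2774.3 (VDRwt) in VD3+TNFa cells, against 993.8 (VDRmut) and 1173 (VDRwt) in VD3 cells (1.31 ± 0.30, adjusted p = 0.0703). Dimmer Slc2a1 probe sets gave 0.90 and 0.34 and did not pass. Egln3 had 1238.1 (VDRmut) and 2879.7 (VDRwt) in VD3+TNFa cells and 656.7 (VDRmut) and 1877.2 (VDRwt) in VD3 cells (0.77 ± 0.46). Among 33 respiratory chain genes 0 passed with VD3, and Cycs, cytochrome c, differed between the responses (1.54, adjusted p = 0.042).

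**Figure D4:**
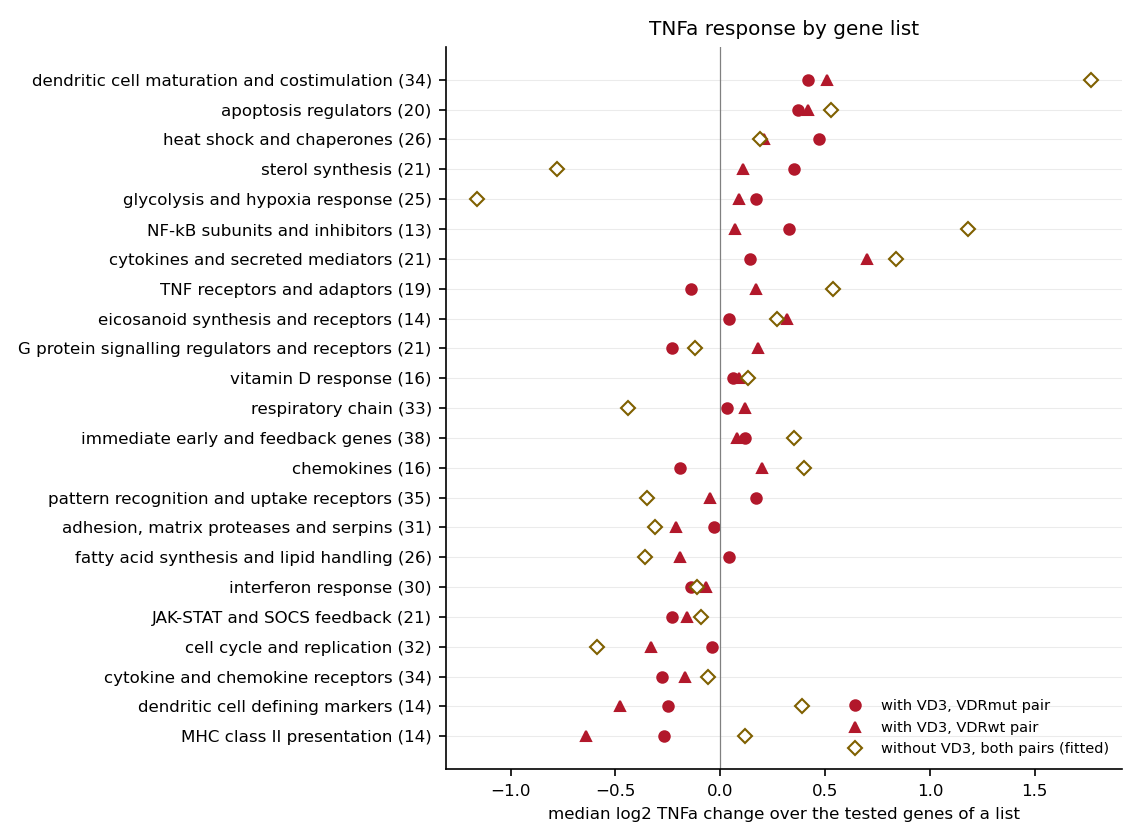
Median log2 TNFa change (x) over the tested genes of 23 lists (y, number of genes in parentheses). Filled symbols are the response with VD3 in the VDRmut pair (circles) and the VDRwt pair (triangles), and open diamonds the fitted response without VD3. Maturation, NF-kB, sterol and glycolysis lists have diamonds far from their filled symbols, at 1.77, 1.18, -0.78 and -1.16.

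Set beside the response without VD3, 21 of the 42 genes that rose with VD3 also rose without it, and 4 of the 12 that fell also fell. Hmgcs1 and Piga rose with VD3 and fell without it. The difference between the responses passed for 6 of the genes that rose, all more positive with VD3: Piga (2.78, adjusted p = 0.0141, and 0.53 on its other probe set, adjusted p = 0.575), Fdft1 (2.76), Ccl3 (2.25, adjusted p = 0.0147), Hmgcs1 (2.06), Ch25h (1.95, adjusted p = 0.0387) and Denr (1.62, adjusted p = 0.0326). Among those that fell it passed for Ypel3 (-1.98, adjusted p = 0.035). Nfkbiz (0.14, adjusted p = 0.844), Clec4e (0.37, adjusted p = 0.592) and Birc3 (-0.28, adjusted p = 0.677) had responses whose difference did not pass. Those with and without VD3 were 2.27 and 2.12 for Nfkbiz, 2.22 and 1.86 for Clec4e and 1.28 and 1.56 for Birc3. Over all probe sets the difference passed for 227, 123 positive and 104 negative.

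The widest gaps between the responses were in genes not called with VD3. Car4, a carbonic anhydrase, had 1711.4 (VDRmut) and 2080.1 (VDRwt) in VD3+TNFa cells against 1512.7 (VDRmut) and 1691.6 (VDRwt) in VD3 cells. Without VD3 it had 28.1 (VDRmut) and 58.8 (VDRwt) in TNFa cells against 1391.3 (VDRmut) and 2167.8 (VDRwt) in untreated cells, and the difference was 5.66 (adjusted p = 0.000943). Cdh1, the adhesion protein E-cadherin, had 585.4 (VDRmut) and 639.1 (VDRwt) in VD3+TNFa cells against 378.7 (VDRmut) and 381.2 (VDRwt) in VD3 cells. Without VD3 it had 68.1 (VDRmut) and 60.3 (VDRwt) in TNFa cells against 813.5 (VDRmut) and 484.5 (VDRwt) in untreated cells (3.98, adjusted p = 0.00288). For both genes the TNFa signals were the lowest pair of the 8. Olfm1, Rnase2a and the arginase Arg1 were Absent on both TNFa arrays, and their differences passed with adjusted p-values of 0.00134, 0.00288 and 0.0116. In the other direction, Il12b had a difference of -4.11 (adjusted p = 0.00271). Pnkd (-4.09, adjusted p = 0.0284) and Gsap (-3.95, adjusted p = 0.0463) also responded less positively with VD3. Bex1 and 2610528A11Rik, with adjusted p-values of 0.00793 and 0.0436, were not Present on both arrays of any group except TNFa.

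Ccl3 rose with VD3 and did not pass without it, and its difference passed. Without VD3 it had 549.9 (VDRmut) and 323.1 (VDRwt) in TNFa cells against 408.8 (VDRmut) and 276.8 (VDRwt) in untreated cells, a change of 0.33 that did not pass. The VD3 signals of 206.5 and 123.5 were the lowest of its 8. The genes called with VD3 share this: for 36 of the 42 that rose the VD3 signal was below the untreated signal in both genotypes, beside 25.8% of all genes. For 8 of the 12 that fell it was above, beside 31.4%. The call itself uses the VD3 arrays and favours genes that read low or high there, so these counts describe the calls. The same holds for a comparison with untreated cells, because the VD3+TNFa signals that enter the call enter it too. All 42 were higher in VD3+TNFa cells in both genotypes (25.2% of all genes) and all 12 were lower (29.5%), relative to untreated cells. The median rise of the 42 was 1.04 over untreated cells and 1.68 over VD3 cells on the log2 scale, and that of the 12 that fell -1.21 and -1.66.

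**Figure D5:**
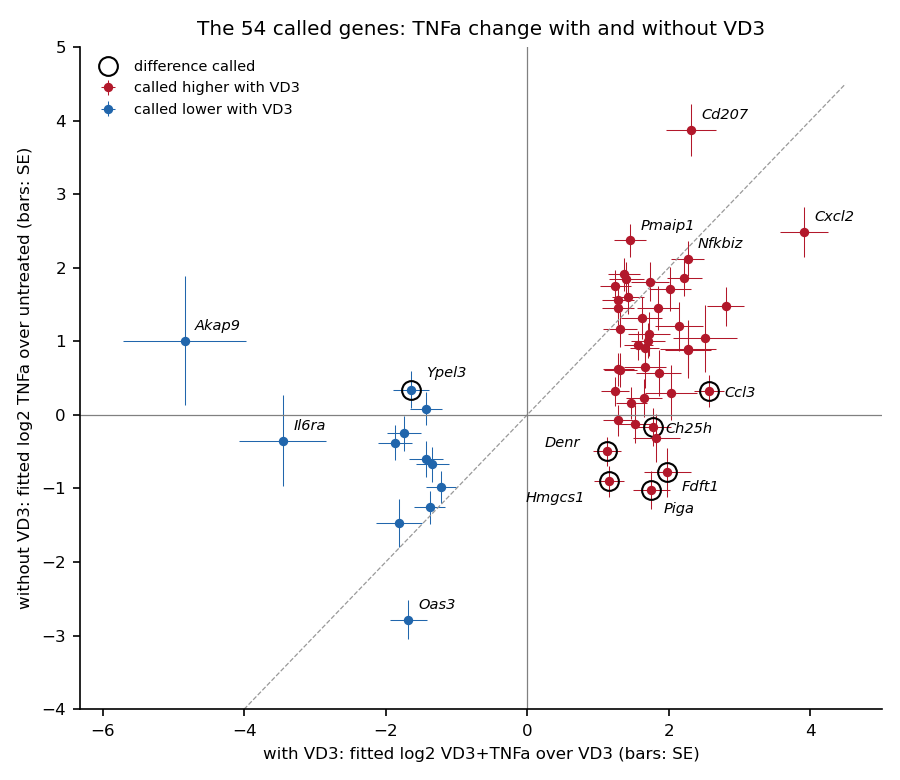
Fitted log2 TNFa change of the 54 called genes with VD3 (x) and without VD3 (y), with bars for the limma SE. Ringed genes are those whose difference passed, and the dashed line marks equal responses. Piga, Fdft1 and Hmgcs1 lie right of 0 and below 0, while Nfkbiz lies close to the line at 2.27 and 2.12.

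Between genotypes, no difference in the response with VD3 passed: 0 of 12832 probe sets in a limma fit with 1 residual degree of freedom, with 493 at an unadjusted p under 0.05 and a lowest adjusted p of 0.133. The pairs are therefore described by size. In VDRwt 5 genes rose at least 4-fold, were Present with VD3+TNFa and moved by less than 1.4-fold in VDRmut. Tnf had 198 in VDRwt VD3+TNFa cells, against an Absent 17.4 in VDRwt VD3 cells. In VDRmut it had 267.1 with VD3+TNFa and an Absent 207.7 with VD3. The gap in VDRwt thus lies in the single low VD3 signal, since the other Absent Tnf signals of the series were 170.4 to 207.7. Ptgs2, the inducible cyclooxygenase, had 227.1 in VDRwt VD3+TNFa cells, against an Absent 25 in VDRwt VD3 cells, and 44.6 with VD3+TNFa against an Absent 52.7 with VD3 in VDRmut. Here the high value is the VDRwt VD3+TNFa signal, above the TNFa-alone signals of 90.9 (VDRmut) and 99.3 (VDRwt). The dimmer Ptgs2 probe set does not share this pattern: its log2 changes were 3.11 in VDRmut and 3.97 in VDRwt, Present with VD3+TNFa and Absent with VD3 in both, with an adjusted p of 0.053. Nek2, Rbm47 and Rbm4b rested on VDRwt VD3 signals of 4.2 to 6, all Absent. Nde1 was the 1 gene that fell by these limits in VDRwt, to 27.7 with VD3+TNFa, against 111.1 with VD3.

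In VDRmut 2 genes rose by these limits, Surf6 and Golt1b, both from Absent VD3 signals of 12.3 and 19.3. Against these stood 16 that fell. Malat1, a nuclear noncoding RNA, had 31.3 in VDRmut VD3+TNFa cells and 273.8 in VDRmut VD3 cells, and 329.9 and 276 in the same VDRwt conditions. Sbno1 had 66.3 in VDRmut VD3+TNFa cells and 590.9 in VDRmut VD3 cells, and 633.4 and 604 in VDRwt. The other 3 Sbno1 probe sets, Present on all 4 arrays, had log2 changes of 0.30 to 0.93 in VDRmut and 0.49 to 1.27 in VDRwt, so the fall was seen on 1 of 4 probe sets. The other 4 Malat1 probe sets had -6.72 to -0.13 in VDRmut and -0.93 to 0.89 in VDRwt, each lower in VDRmut. On the probe sets first given, both were also low on the VDRmut untreated array, at 32.4 and 108.5. That array and the VDRmut VD3+TNFa array are those of low actin ratio, 0.444 and 0.449. They were the lowest pair of the 8 arrays for 7 of the 16 genes, beside 5.7% of all genes. The 16 were chosen for a low VDRmut VD3+TNFa signal relative to VD3, so the 5.7% is not a like background. The part of RNA quality in these falls was not tested. Gdap10, Diaph2, Timeless and Krtap19-1 were the others among the largest, with VDRmut changes of -4.65 to -2.66.

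At least 2-fold in opposite directions were 12 genes, 11 of them lower in VDRmut and higher in VDRwt. Inhba, the activin subunit beta A, had 193.5 in VDRmut VD3+TNFa cells and 485 in VDRmut VD3 cells, against 1256.5 and 456 in VDRwt. Birc6 had 139.6 in VDRmut VD3+TNFa cells and 279.4 in VDRmut VD3 cells, against 578.1 and 211.2 in VDRwt. With 1 array behind each value these differences are given by size alone.

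The label of dendritic cells was checked against 14 defining markers, all of which passed the filter over all 8 arrays. Of the 14, 2 were Present on none of the 4 arrays with VD3. Signals of Cd74 were 9026.9 (VDRmut) and 6712.8 (VDRwt) in VD3+TNFa cells and 12693 (VDRmut) and 16568 (VDRwt) in VD3 cells, and H2-Aa had 8221.2 (VDRmut) and 7287.6 (VDRwt) in VD3+TNFa cells and 10074.5 (VDRmut) and 12295.8 (VDRwt) in VD3 cells. A dimmer H2-Aa probe set changed by 0.24 in VDRmut and -0.34 in VDRwt. No marker passed the test. The sum of the 14 signals was 33260.2 (VDRmut) and 28667.5 (VDRwt) in VD3+TNFa cells and 41163.8 (VDRmut) and 49760.7 (VDRwt) in VD3 cells. Of 14 genes of MHC class II presentation 8 were lower in both pairs (39.9% of all genes), 3 higher in both (30.3%) and 0 called. The median was -0.27 in VDRmut and -0.64 in VDRwt. The lysosomal protease Ctsd came nearest, at 4332.4 (VDRmut) and 3515.4 (VDRwt) in VD3+TNFa cells and 8778.7 (VDRmut) and 10768 (VDRwt) in VD3 cells (-1.32 ± 0.24, adjusted p = 0.0501). Very bright genes were lower in general in the VDRwt pair: the 200 brightest had a median of -0.06 in VDRmut and -0.34 in VDRwt, and 7 of the 14 MHC class II genes are among them. With quantile normalization the list's median was -0.16, and that of the 200 was 0.02.

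Markers of other cells were measured in the same way. Neutrophil markers summed to 37740.9 (VDRmut) and 24332.9 (VDRwt) in VD3+TNFa cells and 48082.6 (VDRmut) and 39454.1 (VDRwt) in VD3 cells, with 0 of 14 called. The sum includes Lyz2, which macrophages and dendritic cells also express, at 10216.6 (VDRmut) and 7677.6 (VDRwt) in VD3+TNFa cells and 13241.3 (VDRmut) and 19639.3 (VDRwt) in VD3 cells. Ngp, a neutrophil granule gene, had 2782.1 in VDRmut and 725.5 in VDRwt VD3+TNFa cells, and 4988.7 in VDRmut and 891 in VDRwt VD3 cells. Monocyte and macrophage markers summed to 31986.4 (VDRmut) and 26675.3 (VDRwt) in VD3+TNFa cells and 30915 (VDRmut) and 40742.1 (VDRwt) in VD3 cells, with 0 of 13 called. B cell (5 tested), T cell (3), NK cell (5) and mast cell (4) markers summed to between 102.3 and 635.6 on each of the 4 arrays. Erythroid and megakaryocyte markers (6 tested) summed to 1402.5 to 1994. In RNA from a bulk culture, fewer cells of a type and less RNA per cell cannot be told apart.

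Of 16 vitamin D response genes 0 passed. Cyp24a1, the enzyme that degrades the hormone, was Present at 59.5 in VDRwt VD3+TNFa cells and 80.3 in VDRwt VD3 cells, and Absent at 7 and 28.2 in the same VDRmut conditions. Vdr itself had 43.7 (VDRmut, Absent) and 104 (VDRwt) in VD3+TNFa cells and 67.2 (VDRmut) and 185.7 (VDRwt) in VD3 cells (-0.73 ± 0.47, adjusted p = 0.382). Whether these Vdr probes lie in the deleted domain is unknown here, so they do not check the genotype. Eicosanoid genes (14 tested), adhesion, protease and serpin genes (31) and fatty acid and lipid genes (26) had medians of 0.16, -0.16 and -0.16, with Serpinb2 as the 1 call among them.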

How the data were processed

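Each of the 8 samples was hybridised to 1 Affymetrix MOE430A array. Per the submitters' processing notes the deposited values are MAS5 signal intensity values with detection calls, and no version is given. A MAS5 intensity is a linear signal per probe set made by the authors, and each array had already been scaled. The members and gene lists were chosen with earlier results of these data known.

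Of 22690 probe sets, 64 controls were left out. Signals were scaled to a common 2.0% trimmed mean, 3 listed zeros were set to 0.1, and log2 was taken. Probe sets Present on at least 2 of 8 arrays were kept (12832). A gene was read on its brightest probe set with 1 symbol. In R 4.3.3, limma 3.58.1 with a trended eBayes prior fitted genotype, VD3 and TNFa with and without VD3 on all 8 arrays, with Benjamini-Hochberg adjustment and a threshold of 0.05. Standard errors and adjusted p-values come from this fit. The genotypes serve as replicates, and whether arrays came from separate cultures is not given, so p-values measure the spread between these arrays only. Where neither dim signal was Present, a fold is given as "at least", against the higher of that signal and the array's lowest Present signal. The number of arrays limits the precision. Genes named by rule are the 15 highest and up to 15 lowest called genes (12 fell), the 6 largest rises and falls of at least 4-fold in 1 pair with under 1.4-fold in the other, and the 6 largest called differences between responses in each direction. Also by rule come called list members, up to 4 members of each list with the largest change (not all of these are described), all NF-kB, chemokine and sterol genes, Vdr and Cyp24a1. Other genes, among them further called genes without a list and those with opposite directions, were named after their values were seen. Alternatives were quantile normalization, a signal floor, other detection filters, other models, a scan day block and leaving out each array. The method was tested on simulated data. Figures were drawn with matplotlib 3.10.9 in Python 3.11.15.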

Additional observations from a re-analysis of the deposited data

Results flagged for a closer look

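The response to TNFa with VD3 differed from that without VD3 for 227 probe sets by the test of the difference. Among the genes called with VD3 the log2 difference was 2.78 for Piga, 2.76 for Fdft1, 2.25 for Ccl3, 2.06 for Hmgcs1, 1.95 for Ch25h, 1.62 for Denr and -1.98 for Ypel3. The VDRmut and the VDRwt pair moved at least 2-fold in opposite directions for 12 genes, and this difference was not tested gene by gene beyond the fit between genotypes, in which 0 probe sets passed and 493 had an unadjusted p under 0.05. The 3' probe set of the 18S control, which no comparison uses, read 1121.3 on the VDRwt VD3+TNFa array, against 183.9 on the VDRwt VD3 array.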

How the results depend on the processing

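The 103 probe sets called for TNFa with VD3 became 106 with quantile normalization (89 shared) and 103 with the values of the series table. They became 1 with a signal floor of 50, 6 with no filter, 167 with a filter on the 4 arrays with VD3, 8 without the eBayes trend, 10 with a VD3 effect in each genotype, 1 with scan day as a block and 1312 with only the 4 arrays with VD3. Of those 1312, 670 were higher and 642 lower, against 82 and 21 of the 103. Leaving out 1 array gave 0 to 692. Omitting a VD3+TNFa array gave 2 (VDRmut) and 0 (VDRwt), omitting a VD3 array 6 (VDRmut) and 2 (VDRwt), and omitting an untreated array 681 (VDRmut) and 692 (VDRwt). With the VDRmut VD3+TNFa and VDRmut untreated arrays both omitted for their low actin ratios, an alternative chosen after seeing the data, there were 168. The 227 differences between the responses became 10 with the floor, 56 with no filter, 37 without the trend and 136 with scan day as a block, and leaving out 1 array gave 7 to 470. At 3-fold in place of 2-fold, 48 probe sets in place of 236 were higher in both pairs and 25 in place of 181 lower. The difference between genotypes called 0 under every alternative that could be fitted, and leaving out an array could not be fitted there. The scan day block counted the VDRmut arrays, which have no record, with scan day 1, and in VDRwt it coincided with TNFa. It therefore does not separate scan day from TNFa. The cause of these changes was not tested. No arrays could be paired by replicate number, because each genotype has 1 array per condition. The fit of only the 4 arrays with VD3 is the comparison paired by genotype. The genotype pairs enter every fit through its genotype term.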
